A study of Rattus norvegicus with 6 samples.

Results

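The cyclin-dependent kinase inhibitor genes of rat cortical cells were examined on 3 arrays of cells transfected with a Math2 expression vector and 3 arrays of cells that received a control vector. The gene Neurod6, formerly called Math2, encodes a neuronal transcription factor of the basic helix-loop-helix (bHLH) class. The family comprised Cdkn1a, Cdkn1b, Cdkn1c, Cdkn2b, Cdkn2c and Cdkn2d, and every probe set that the platform annotation gave to one of these symbols was taken. That gave 10 probe sets for 6 genes, of 31099 probe sets on the array. The set was chosen by the signal of Cdkn1c, which had been noted as higher in the Math2 cells than in the control cells. Its own difference is therefore given as a description with no test. The other 5 genes were taken by name as its family.

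The cells were primary cultures of rat brain cortex, which can hold several cell types. Both groups were cultured with fetal calf serum and received, beside 13.3 µg of the Math2 or control vector, 2.7 µg of a vector for a receptor, LNGFR, cut short so that it serves only as a surface tag. Cells that carried the tag were separated by it 24 h later. The sources used here do not name the promoter of the vectors, the age or strain of the animals, or whether the numbered samples came from separate cultures, so p-values reflect the spread among these 6 samples, and that spread may be technical. Markers of both neurons and glia were measured in these cells: the neuronal gene Dcx had signals of 4273 ± 3462 in Math2 cells and 3493 ± 1832 in control cells (SD, n = 3 each), and the astroglial transporter Slc1a3 had 12982 ± 3341 in Math2 cells and 11413 ± 2094 in control cells.

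Cyclin-dependent kinases drive a cell through its division cycle once they are bound to cyclins. Inhibitors of the Cip/Kip class, encoded by Cdkn1a (p21), Cdkn1b (p27) and Cdkn1c (p57), bind the joined kinase and cyclin of several kinds of complex. Inhibitors of the INK4 class bind Cdk4 and Cdk6 and keep them from D-type cyclins. They include those encoded by Cdkn2b (p15), Cdkn2c (p18) and Cdkn2d (p19). In the developing cortex of the mouse both classes take part in the exit of progenitors from the cycle, and Cdkn1b, Cdkn1c and Cdkn2d are the members best known there. In mouse and human, Cdkn1c is an imprinted gene expressed mainly from the maternal copy. Neuronal bHLH factors bind E-boxes, sites spelled CANNTG.

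Cdkn1c had the largest difference of the 8 member probe sets above the filter on dim signals. Its signal in the Math2 cells was about 2.12-fold that in the control cells, and the 3 Math2 arrays lay above the 3 control arrays, as 3.7% of all tested probe sets did. Of the 7 other probe sets bright enough to be tested, from Cdkn1a, Cdkn1b, Cdkn2c and Cdkn2d, 3 were higher and 4 lower, 0 passed the test, and their median log2 difference was -0.036, against -0.031 over all 18625 tested probe sets. Among all tested probe sets 0% passed in limma, and with equal replicate numbers as a block 0.0161% passed, which was 3 probe sets and included 0 of these 7. At an unadjusted p under 0.05, limma counted 594 probe sets of the array, or 3.19%, and 0 of the 7.

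**Figure D1:**
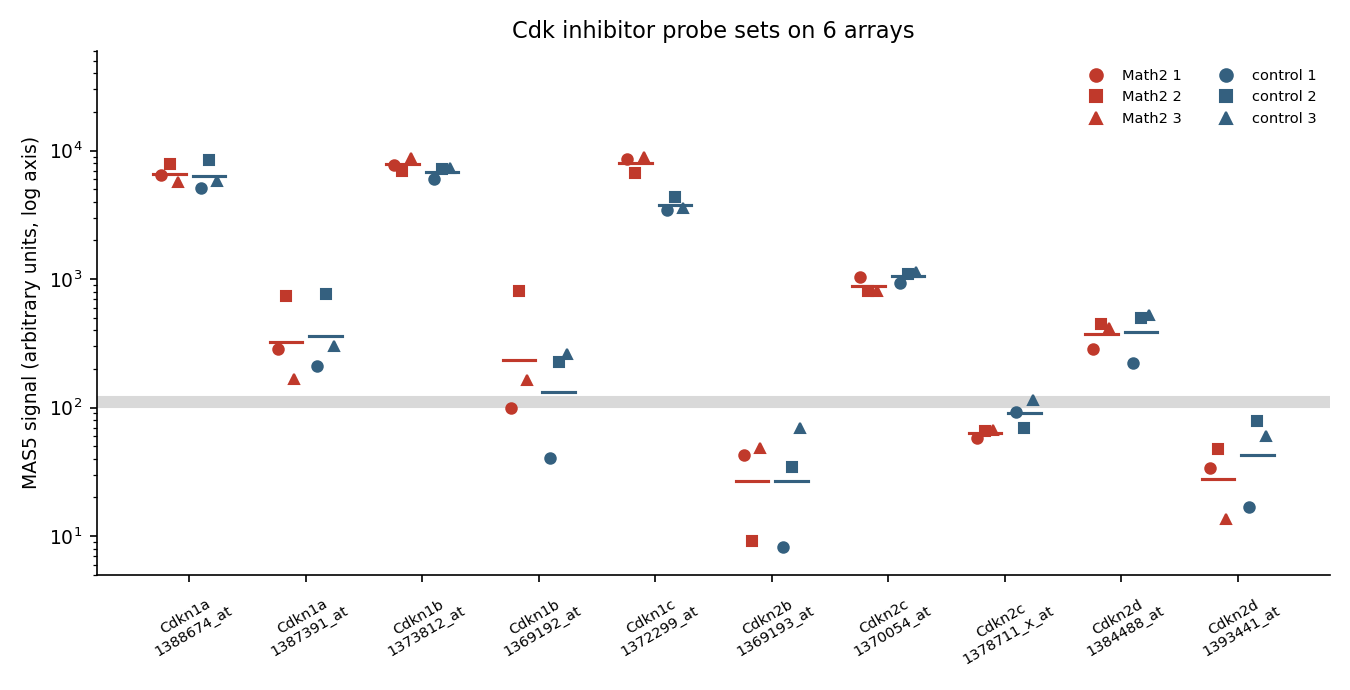
MAS5 signal of the 10 Cdk inhibitor probe sets on a log axis, with the 3 Math2 arrays in red left of the 3 control arrays in blue. Symbols mark the replicate number, short lines are geometric means and the grey band spans the array medians, 102 to 120. The groups are apart for Cdkn1c, at 6723 or more on Math2 arrays and 4380 or less on control arrays, and overlap for the bright probe sets of Cdkn1a and Cdkn1b.

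All values are MAS5 signals, which are linear and have no unit, and each array gives 1 for a probe set. Signals of different probe sets depend on their probes and were not set against each other, so the genes are not ordered by level. A log2 difference is the mean of log2(signal + 7.42) over the Math2 arrays minus that over the control arrays. A fold is 2 to the power of that difference, so it is not the ratio of the mean signals, and for dim probe sets it understates the change. Probe sets were tested with limma where their mean log2 value was at least 6.07, the 40th percentile. Of the members, 8 probe sets of 5 genes lay above this filter and 2 below, those of Cdkn2b and the dimmer one of Cdkn2d.

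Differences between the arrays touch these values. Over 18 hybridization spike-in probe sets, which report transcripts added in fixed amounts, the geometric mean signal was 3875 to 6773 on Math2 arrays and 1893 to 2566 on control arrays. Of the 187 tested probe sets that make up the brightest 1%, 186 had the higher mean in Math2 (median log2 difference 0.43). The ratio of the Gapdh 3' to 5' signals is large where labelled transcripts lack their 5' part. It was 8.48, 6 and 8.14 on Math2 arrays 1, 2 and 3, against 13.8, 3.74 and 5.04 on control arrays 1, 2 and 3. Pairs of arrays correlated across probe sets at 0.926 to 0.955 within a group and at 0.928 to 0.955 between the groups (Pearson's r, log2 scale). Neurod6 itself had signals of 312, 167 and 1546 on Math2 arrays 1, 2 and 3 and of 386, 207 and 973 on control arrays 1, 2 and 3. The labels give neither the transfected sequence nor its species, so its probe set may lie outside that sequence and checks nothing about the labels.

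Cdkn1c was represented by a single probe set, 1372299_at. Its signal was 8624, 6723 and 8873 on Math2 arrays 1, 2 and 3, against 3431, 4380 and 3576 on control arrays 1, 2 and 3. The lowest Math2 array thus lay above the highest control array, and both of these carry the replicate number 2. The means were 8073 ± 1176 in Math2 cells and 3796 ± 511 in control cells (SD, n = 3 each), a log2 difference of 1.08 (SE 0.201). The difference was 1.33, 0.62 and 1.31 on the log2 scale in the pairs numbered 1, 2 and 3, so pair 2 showed less than either of the others. In bulk RNA, more cells that express the gene and more of its RNA per cell cannot be told apart.

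Cdkn1c was bright in both groups. Its signal lay at the 98.4th to 99th percentile of all probe sets on the Math2 arrays and at the 95.4th to 96.9th percentile on the control arrays. Such ranks do not change when all signals of an array are multiplied by the same factor. Bright probe sets as a class were higher on the Math2 arrays, and the 200 tested probe sets nearest to Cdkn1c in mean level had a median log2 difference of 0.083. With quantile normalization, which gives all arrays the same distribution, the Cdkn1c difference was 0.98 and the median of these 200 was -0.021. Leaving out 1 array at a time gave a Cdkn1c difference between 1.01 and 1.21. Cdkn1c was chosen for its rise on these same arrays and its groups do not overlap. Leaving out 1 array therefore could not turn its sign, and these values only describe the size of the difference.

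**Figure D2:**
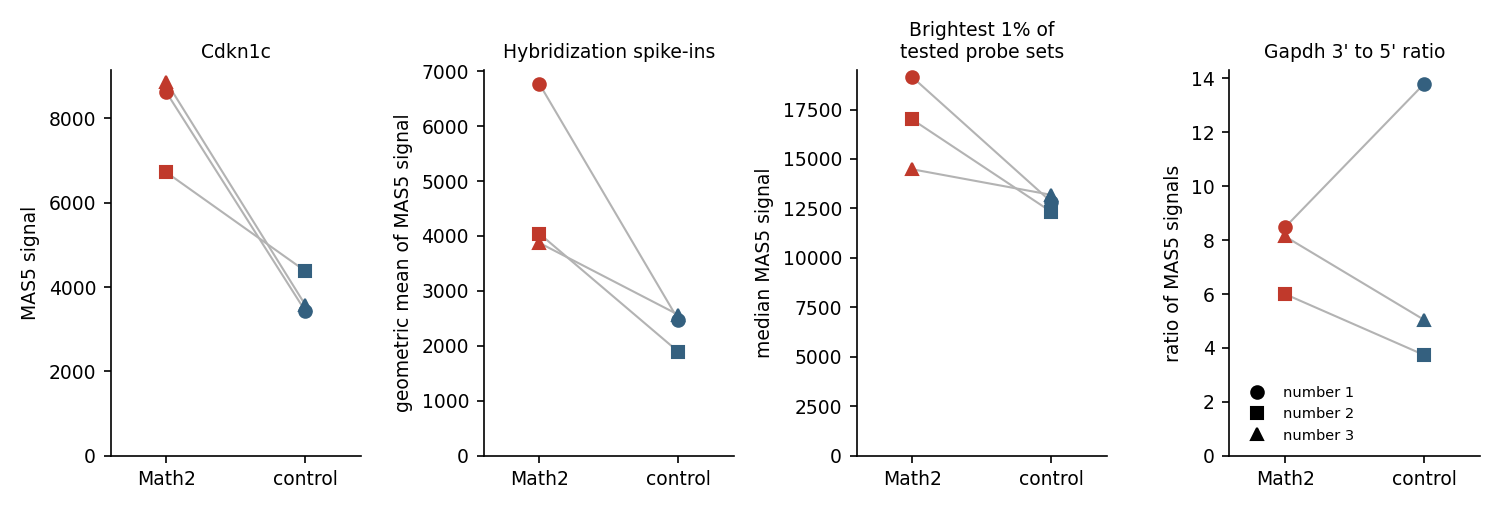
Cdkn1c signal and 3 array measures, with Math2 arrays left of control arrays on axes that start at 0 and grey lines joining equal replicate numbers. Cdkn1c, the spike-ins and the brightest 1% of probe sets are all higher on the Math2 arrays, whereas the Gapdh ratio ranges from 6 to 8.48 on Math2 arrays and from 3.74 to 13.8 on control arrays.

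Cdkn1a encodes p21, the inhibitor best known as a target of p53 after DNA damage. Its brighter probe set, 1388674_at, had signals of 6423, 7886 and 5708 on Math2 arrays 1, 2 and 3, against 5096, 8506 and 5842 on control arrays 1, 2 and 3. The groups overlapped, and in both of them array 2 was the highest. The fold was 1.05 with a 95% interval of 0.732 to 1.49 (limma adjusted p = 1.00), so these arrays leave room for a modest change in either direction. The sign of the log2 difference, 0.064, turned to -0.068 with quantile normalization.

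The dimmer Cdkn1a probe set, 1387391_at, had signals of 284, 735 and 166 on Math2 arrays 1, 2 and 3, against 210, 764 and 301 on control arrays 1, 2 and 3. Array 2 was again the highest of each group, by more than 2-fold over the next. The log2 difference was -0.15 (SE 0.57, limma adjusted p = 1.00), and without control array 2 it became 0.37, as it became 0.32 when Math2 array 3 was left out. For Cdkn1a, then, the numbered samples differed among themselves by more than the groups did.

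Cdkn1b encodes p27, which accumulates in many cells that stop dividing. Its brighter probe set, 1373812_at, had signals of 7806, 6974 and 8778 on Math2 arrays 1, 2 and 3, against 5975, 7264 and 7396 on control arrays 1, 2 and 3. The highest value was on Math2 array 3 and the lowest on control array 1, and the groups overlapped. The fold was 1.14 with a 95% interval of 0.86 to 1.52 (limma adjusted p = 1.00), and the log2 difference of 0.19 was 0.029 with quantile normalization.

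The other Cdkn1b probe set, 1369192_at, was far less even. Its signals were 99.6, 808 and 164 on Math2 arrays 1, 2 and 3, against 40.2, 225 and 261 on control arrays 1, 2 and 3. Math2 array 2 stood far above the rest, and Math2 array 1 and control array 1 lay below their array medians. The fold was 1.72 with a 95% interval of 0.51 to 5.77, far wider than for the brighter probe set. The log2 difference of 0.78 (SE 0.791, limma adjusted p = 1.00) depended on single arrays: it was -0.084 without Math2 array 2, -0.019 without control array 1 and 1.38 without Math2 array 1.

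**Figure D3:**
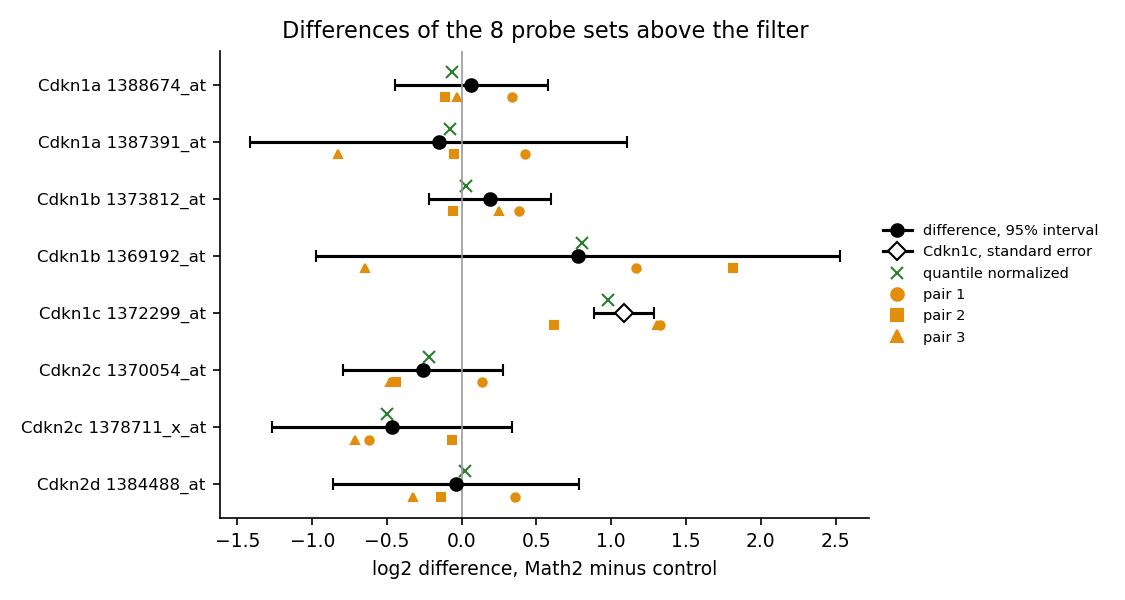
Log2 difference, Math2 minus control, of the 8 probe sets above the filter. Circles carry 95% intervals, the open diamond of Cdkn1c carries its standard error, crosses are quantile-normalized values and orange symbols are the 3 numbered pairs. Cdkn1c lies at 1.08 with all pairs above 0, and the intervals of the 7 others include 0.

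Cdkn2c encodes p18, an INK4 inhibitor found in dividing neural progenitors of the mouse. Its brighter probe set, 1370054_at, had signals of 1034, 808 and 807 on Math2 arrays 1, 2 and 3, against 940, 1099 and 1129 on control arrays 1, 2 and 3. Math2 arrays 2 and 3 lay below every control array, and Math2 array 1 lay above control array 1. The fold was 0.834 with a 95% interval of 0.575 to 1.21 (limma adjusted p = 1.00). The log2 difference of -0.26 ranged from -0.38 to -0.20 when single arrays were left out.

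The dimmer Cdkn2c probe set, 1378711_x_at, had signals of 57.7, 66.0 and 66.9 on Math2 arrays 1, 2 and 3, against 92.8, 69.4 and 114 on control arrays 1, 2 and 3. The Math2 arrays lay below the control arrays without overlap, by a narrow margin against control array 2. Its log2 difference was -0.47 (SE 0.362, limma adjusted p = 1.00; exact permutation p = 0.1, the smallest possible). All 6 signals were below the median of their array, and the letter x in its name marks probes that may also bind other transcripts. This was 1 of 7 tested probe sets whose groups did not overlap, beside 4.3% lower and 3.7% higher without overlap among all tested probe sets. It was thus a single dim probe set, and the brighter one of the same gene overlapped.

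Cdkn2d encodes p19, which in the mouse is kept in neurons after they leave the cycle. Its brighter probe set, 1384488_at, had signals of 288, 449 and 416 on Math2 arrays 1, 2 and 3, against 223, 495 and 524 on control arrays 1, 2 and 3. Array 1 was the lowest in both groups and the groups overlapped. The fold was 0.975 with a 95% interval of 0.551 to 1.73 (limma adjusted p = 1.00). The log2 difference of -0.036 was 0.020 with quantile normalization and -0.42 without control array 1, and it was above 0 without Math2 array 1, control array 2 or control array 3.

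The remaining probe sets were too dim to be tested. Cdkn2b, the INK4 gene that responds to TGF-beta in several cell types, had signals of 43.1, 9.23 and 48.9 on Math2 arrays 1, 2 and 3, against 8.26, 34.2 and 69.6 on control arrays 1, 2 and 3. The dimmer Cdkn2d probe set, 1393441_at, had 33.6, 47.4 and 13.6 on Math2 arrays 1, 2 and 3, against 16.7, 78.5 and 60.1 on control arrays 1, 2 and 3. All 12 of these signals were below the median of their array, and the groups overlapped for both. Detection calls were not used here, so it is unknown whether these signals were above background.

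The family had no common direction across the numbered pairs either, although within each pair most of its probe sets had the same sign. The 7 tested probe sets other than Cdkn1c stand for Cdkn1a, Cdkn1b, Cdkn2c and Cdkn2d. Of these 7, 6 were higher in Math2 in pair 1, 1 in pair 2 and 1 in pair 3. Cdkn1a, Cdkn1b and Cdkn2c each count here with more than 1 probe set. Shares over all tested probe sets are not given by pair here, so whether these counts are particular to the family is unknown. In pair 1 the control array is the one with the Gapdh ratio of 13.8. Without control array 1, 1 of the 7 was higher and 6 were lower. Their median log2 difference was then -0.34, against -0.056 over all tested probe sets. Without control array 2, 5 were higher and 2 lower, and the median was 0.23, against -0.027 over all tested probe sets. Without Math2 array 2, 1 was higher, and without any other single array 4 were. No probe set of the 7 passed in any of these fits.

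In 3 of the 8 tested member probe sets the 3 highest signals lay on the 3 arrays with the lowest Gapdh ratios, against 14.8% of all tested probe sets; this ordering was chosen after the values were seen. It was not found in the brighter probe sets of Cdkn1a and Cdkn1b, in Cdkn1c or in either Cdkn2c probe set. For the brighter Cdkn2d probe set, the 3 arrays with the lowest ratios, Math2 2, control 2 and control 3, had the 3 highest signals, at 449 to 524, and control array 1, with the highest ratio, had the lowest. The uneven Cdkn1b probe set ran the same way, with 808, 225 and 261 on those 3 arrays and 40.2 on control array 1. The dimmer Cdkn1a probe set had its 3 highest signals on those arrays too, at 301 to 764, and its lowest on Math2 array 3. The part of transcript completeness in the member values was not tested.

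**Figure D4:**
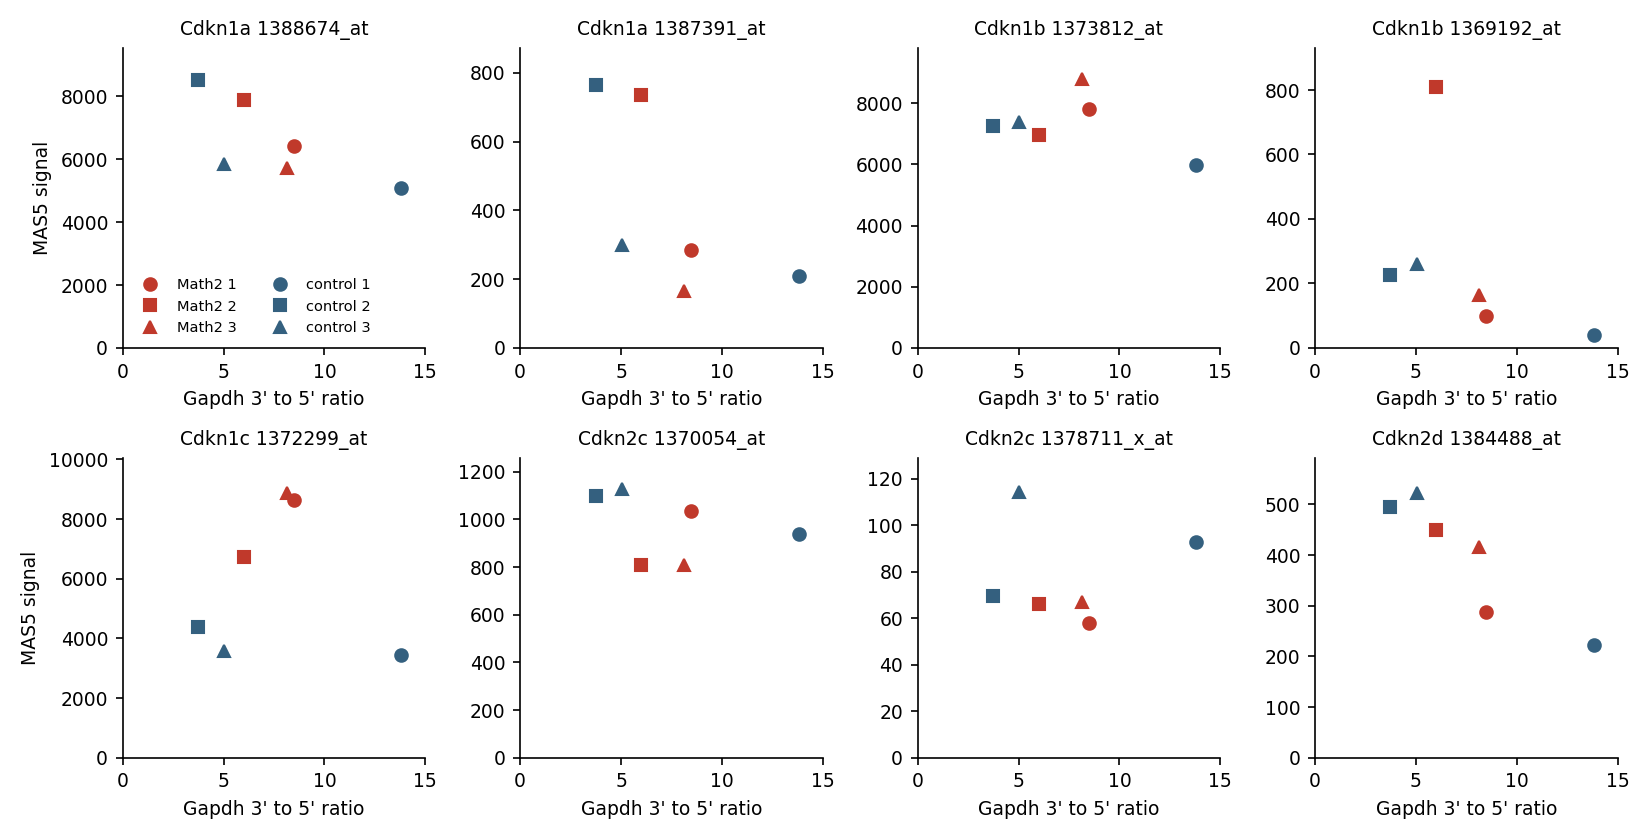
MAS5 signal of the 8 tested member probe sets against the Gapdh 3' to 5' ratio of the array, with Math2 arrays in red and control arrays in blue and the symbol marking the replicate number. The dimmer Cdkn1a and Cdkn1b probe sets and the Cdkn2d probe set have their 3 highest signals on the 3 arrays with the lowest ratios and the 5 others do not; Cdkn2d ranges from 223 at a ratio of 13.8 to 524 at a ratio of 5.04.

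Promoter windows of 5 members were matched by symbol in RefSeq (GRCr8 build), Cdkn1a, Cdkn1b, Cdkn2b, Cdkn2c and Cdkn2d; Cdkn1c was not matched. Each window holds 300 bases, from 250 before to 50 after an annotated transcript start. They were searched for the E-box CANNTG, which reads the same on both strands, because the transfected factor belongs to a class that binds it. It was in 3 of the 5 windows and in 72.1% of 33469 windows of this length: Cdkn1a held 2, Cdkn2b 3, Cdkn2c 1, and Cdkn1b and Cdkn2d 0. The form CAGCTG was found in Cdkn2b, and in 15.1% of all windows. CATATG and CAGATG, searched on both strands, were in 0 of the 5 and in 4.11% and 16.6% of all windows; both are among the spellings that CANNTG covers. The windows of the remaining Cip/Kip genes are shown, as the bright members beside Cdkn1c whose groups overlapped, one with and one without an E-box. Cdkn1a lies at chr20:7150682-7150981 and Cdkn1b at chr4:169491254-169491553, both on the plus strand, and capitals mark each E-box.
Cdkn1a: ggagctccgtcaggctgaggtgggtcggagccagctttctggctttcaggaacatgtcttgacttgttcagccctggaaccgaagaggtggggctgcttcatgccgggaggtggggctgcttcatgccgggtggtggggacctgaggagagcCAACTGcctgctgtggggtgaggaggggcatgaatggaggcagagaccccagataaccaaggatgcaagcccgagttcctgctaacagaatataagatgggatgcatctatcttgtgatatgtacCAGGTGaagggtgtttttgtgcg
Cdkn1b: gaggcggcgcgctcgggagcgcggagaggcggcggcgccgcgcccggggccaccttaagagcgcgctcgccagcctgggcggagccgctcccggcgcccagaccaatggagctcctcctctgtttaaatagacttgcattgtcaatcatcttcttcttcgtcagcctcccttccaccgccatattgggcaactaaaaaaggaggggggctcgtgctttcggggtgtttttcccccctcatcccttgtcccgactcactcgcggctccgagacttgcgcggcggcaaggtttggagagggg
A match is only a run of letters and says nothing about binding in these cells.

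The kinases and cyclins that the inhibitors act on were next compared, by lists of symbols in which each gene stands by its brightest probe set. Of 8 G1 cyclin and kinase genes, 7 were tested and 0 passed in limma, 2 being higher and 5 lower (median log2 difference -0.13). Cdk2, a kinase of the entry into S phase, measured 229 ± 70.3 in Math2 cells and 300.4 ± 35.3 in control cells (SD, n = 3 each), a log2 difference of -0.42. Its cyclin Ccne2 had a difference of 0.34, the D-type cyclin Ccnd1 of -0.25, and Cdk4 of 0.12, which was -0.011 with quantile normalization. The list thus had members on both sides and none that was called.

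Of 13 retinoblastoma and E2F genes, which lie downstream of these kinases, 12 were tested and 0 passed, with 6 higher and 6 lower and a median of -0.056. E2f2 had a log2 difference of -0.71, E2f1 of 0.39, the E2F partner Tfdp1 of 0.24 and E2f8 of -0.25. Genes of S phase and mitosis, whose levels fall in cells that stop dividing, had a median of -0.053 with 10 of 21 higher, 11 lower and 0 passing. The mitotic kinase Plk1 measured 462 ± 100.4 in Math2 cells and 669 ± 103 in control cells (SD, n = 3 each), a log2 difference of -0.54, and the division marker Mki67 had -0.33. Ccna2, the cyclin of S phase and G2, had a difference of 0.53, and the bright replication clamp gene Pcna of 0.34, which was 0.041 with quantile normalization. Plk1 and Mki67 were lower in 3 of 3 pairs and Ccna2 and Pcna higher in 3 of 3 pairs, and the groups of each overlapped. They were named for the smallest p of their list in this same contrast, which favours agreement among pairs, so this is a description only. The list had members on both sides.

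Genes that govern the inhibitors were measured as well. Of 13 genes listed for the ubiquitination that marks Cip/Kip proteins for destruction, 12 were tested, with 7 higher, 5 lower and 0 passing. These are not all ligase genes, and their median was 0.035. The ligase gene Rnf123 had a log2 difference of -0.39, Cks2 of 0.33, Ddb1 of -0.43 and Cul4a of 0.32. Of 14 genes for p53 and its targets, which include the known partners of Cdkn1a in that response, 9 were tested, with 6 higher, 3 lower and 0 passing, and the median of 0.052 was -3.34e-04 with quantile normalization. Zmat3 had a difference of -0.41, Ccng1 of 0.26, which was -0.0045 with quantile normalization, Bbc3 of 0.31 and Sesn1 of -0.51. Of 18 TGF-beta, Foxo, Myc and Klf genes, 16 were tested, with 8 higher, 8 lower, 0 passing and a median of -0.072. Mycn had a log2 difference of 0.46, Smad3 of -0.64, Foxo3 of -0.39 and Klf6 of -0.31.

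Imprinted genes as a list lay on both sides of 0. Of 20 genes on the list, 15 were tested, with 7 higher, 8 lower, 0 passing and a median of -0.034, which was 0.0091 with quantile normalization. Ndn, which encodes the growth suppressor necdin of neurons, measured 8144 ± 1623 in Math2 cells and 5216 ± 1115 in control cells (SD, n = 3 each). Its log2 difference was 0.64 (limma adjusted p = 1.00), or 0.53 with quantile normalization, and it was higher in 3 of 3 pairs. Of the 15 tested genes only Ndn had groups without overlap, beside 3.7% higher and 4.3% lower without overlap among all tested probe sets. The growth factor receptor gene Igf2r had a difference of -0.37, Mest of -0.36 and Phlda2, a neighbour of Cdkn1c in the imprinted cluster of mouse and human, of -0.67 from signals of 68.9 ± 32.3 in Math2 cells and 116 ± 60.7 in control cells. Other listed neighbours did not share this direction: Nap1l4 had 0.093, and Kcnq1 and Slc22a18, too dim to be tested, had 1.30 and 0.018. Of 4 further genes that carry a Cdk inhibitor name, 3 were tested, 0 passed, and Cdkn3, a phosphatase of Cdk2, had a difference of 0.28, Cdkn2aip of 0.31 and Cdkn2aipnl of -0.12.

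Among neurogenic bHLH factors and their antagonists, 14 of 18 were tested of which 11 were higher, 3 were lower and 0 passed; the median log2 difference was 0.50, or 0.41 with quantile normalization. Id2, an antagonist of bHLH factors, had a difference of 1.07, Tcf4, a partner of them, of 0.60, Hes6 of 0.55 and Hes5 of 0.75 from dim signals. Of the 14 genes these 4 were higher without overlap between the groups, beside 3.7% of all tested probe sets. Id2 and Tcf4 lie among the bright probe sets, and their differences were 0.81 and 0.31 after quantile normalization. Leaving out 1 array at a time changed the sign of the median of 13 of the 16 pathway and marker lists, and left it for 3: this list (0.37 to 0.54), the further Cdk inhibitor names (0.046 to 0.32, from 3 tested genes) and the fibroblast and meningeal markers (-0.46 to -0.11). The lists were chosen with earlier results of these data known, and this one joins factors with their antagonists, so a kept sign is only a description.

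**Figure D5:**
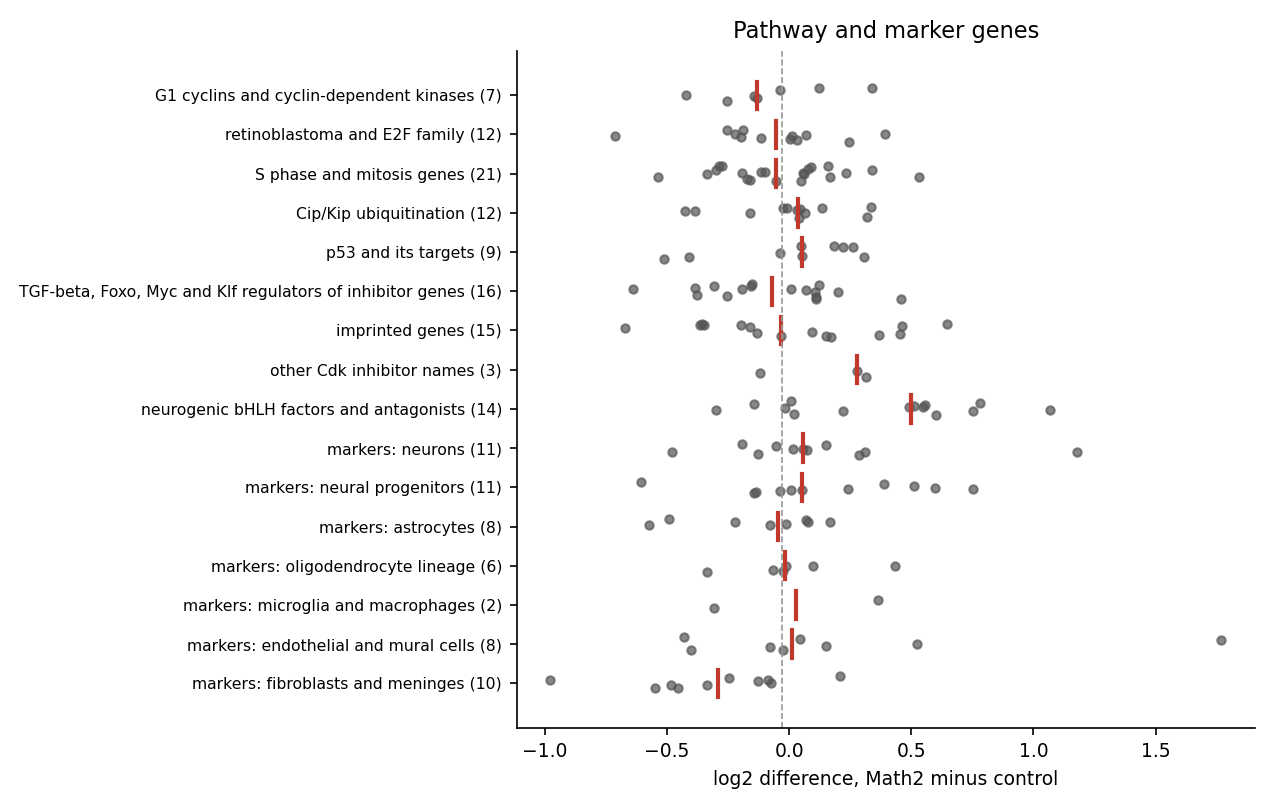
Log2 difference, Math2 minus control, of each tested gene in the pathway and marker lists (number tested in brackets). Points are genes, spread vertically at random within a list, red lines are list medians and the dashed line is the median of all tested probe sets. Medians lie between -0.29 for fibroblast and meningeal markers and 0.50 for bHLH factors and antagonists.

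Markers of the cell types in such cultures were set beside Cdkn1c, since it is expressed in several of them. Neuronal markers had 7 higher and 4 lower of 11 tested, of 14 listed (median 0.056), and their summed signals were 16321 to 38337 on Math2 arrays and 16268 to 30498 on control arrays. Neural progenitor markers had 7 higher and 4 lower of 11 (median 0.051, or -0.032 with quantile normalization), with sums of 47627 to 71447 on Math2 arrays and 47181 to 50297 on control arrays. Astrocyte markers had 3 higher and 5 lower of 8 tested, of 9 listed (median -0.045), with sums of 24199 to 39254 on Math2 arrays and 27130 to 35451 on control arrays. The ranges of these sums overlapped between the groups. Of the single tested markers, 0 neuronal ones lay apart between the groups. In the progenitor list Vim and Hes5 were higher without overlap, with log2 differences of 0.51 and 0.75, and Notch1 was lower without overlap, with -0.61; for Vim, which encodes the filament protein vimentin, the difference was -0.032 with quantile normalization. Hes5 lay below the array median on every array and passed the filter only through its Math2 arrays, so its count here was favoured by the filter. In the astrocyte list Fgfr3 was lower without overlap, with a log2 difference of -0.57. Among all tested probe sets 3.7% were higher and 4.3% lower without overlap.

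Fibroblast and meningeal markers, from mesenchymal cells, which express Cdkn1c in the mouse embryo, were 1 higher and 9 lower of 10 tested, of 13 listed (median -0.29), with sums of 10244 to 14501 on Math2 arrays and 13010 to 14128 on control arrays. Of these 10, 3 were lower without overlap between the groups, beside 4.3% of all tested probe sets: Aldh1a2, Fbn1 and Col1a1, with log2 differences of -0.98, -0.45 and -0.25. Endothelial and mural markers had 4 higher and 4 lower of 8 tested, of 12 listed (median 0.01, or -0.0033 with quantile normalization), with sums of 1435 to 1847 on Math2 arrays and 1081 to 2216 on control arrays. In that list 1 gene was higher and 1 lower without overlap: Pdgfrb, a receptor gene of mural cells, measured 200 ± 81.1 in Math2 cells and 51.7 ± 13.2 in control cells, and Tek, a receptor gene of endothelium, measured 55.3 ± 13.8 in Math2 cells and 74.2 ± 2.23 in control cells (SD, n = 3 each). On the log2 scale the control mean of Pdgfrb and the Math2 mean of Tek lay below the filter. Each was thus tested only through its higher group, which favours such a gap. Both Tek means were below the array medians. Oligodendrocyte lineage markers had 2 higher and 4 lower of 6 tested, of 10 listed (median -0.019), with sums of 9573 to 13384 on Math2 arrays and 8621 to 13790 on control arrays. Of 11 microglial and macrophage markers, 2 were bright enough to be tested, 1 higher and 1 lower, with sums of 321 to 484 on Math2 arrays and 419 to 554 on control arrays. Among all tested probe sets 3.7% were higher and 4.3% lower without overlap. No marker list had a member that passed in limma. The part of cell composition in the Cdkn1c difference was not tested.

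The patterns most like Cdkn1c were sought among 13752 tested probe sets with 1 gene symbol, by Pearson's r of log2 signals over the 6 arrays. The nearest were Atg5 (r = 0.988), Paxx (r = 0.98), Arhgap39 (r = 0.97), Prdm2 (r = 0.959) and Vps26c (r = 0.959). Since Cdkn1c was chosen for a difference between the groups, likeness over all arrays mostly finds genes that share that difference, and these 5 had log2 differences of 0.45, 0.45, 0.34, 0.71 and 0.65. When each group's mean was removed first, the nearest were Mdfic, Treml1, Rhou, Mecom and C13h1orf74, with r from 0.981 to 0.992, and their group differences ran from -0.60 to 0.23. Among so many probe sets some will be this close over 6 arrays, so these are descriptions with no test. Within the family, by the brightest probe set of each gene, r with Cdkn1c over the 6 arrays was 0.726 for Cdkn1b, 0.165 for Cdkn1a, 0.004 for Cdkn2d and -0.546 for Cdkn2c. With group means removed it was 0.744 for Cdkn1b, 0.167 for Cdkn1a, 0.149 for Cdkn2d and 0.452 for Cdkn2c, so the sign for Cdkn2c turned.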

How the data were processed

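The deposited values are linear intensities made by the authors with MAS5, per the submitters' processing notes, which give neither version nor settings. This method subtracts background and mismatch brightness and summarises each probe set as a single signal. The arrays shared a mean of 500 once the 2% at either end was removed, so no further scaling was applied. From there, signals were transformed to log2(signal + 7.42), the pseudocount being the 10th percentile. Of 31099 probe sets, 57 were controls. Genes were named from the platform annotation and matched by gene number to RefSeq (GRCr8), which matched 20764 of 20826 single symbols.

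The 3 Math2 and 3 control arrays were fitted in R 4.3.3 by limma 3.58.1, with an intensity trend in eBayes; two-sided p-values were adjusted by Benjamini-Hochberg over 18625 probe sets, and 0.05 was the threshold. Exact permutation tests over the arrays have a smallest possible p of 0.1, and 3 arrays per group limit the precision. Replicate numbers were taken as pairing the samples because arrays of equal number deviated together from their group means (r across probe sets 0.326, 0.476 and 0.372 for numbers 1, 2 and 3). Arrays of unlike number had r of -0.46 to 0.10. Deviations within a group sum to 0, so the unlike values depend on the like ones. The pairing rests on the data, since no label explains the numbers, and what arrays of equal number share was not tested. The planned fit had no block. Alternatives were another pseudocount and filter, quantile and median normalization, no trend, the replicate block and leaving out single arrays. Named genes are the members and up to 4 per list with the smallest p, with the 5 nearest patterns. Other genes (Neurod6, Dcx, Slc1a3, and markers whose groups did not overlap) were named after their values were seen. The members and lists were chosen with earlier results of these data known.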

Additional observations from a re-analysis of the deposited data

How the results depend on the processing

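Over all probe sets, limma called 0 higher and 0 lower, and with the replicate block 3 higher and 0 lower, or 4 higher and 1 lower with quantile normalization too; without any single array it called 0. The block and pairing changed no call of a member: the smallest limma adjusted p of the 7 tested probe sets besides Cdkn1c was 0.698 with the block. None passed under any of the 14 alternatives that tested it. The stricter filter, at the 60th percentile, left the dimmer probe sets of Cdkn1b and Cdkn2c untested. Cdkn1c had a log2 difference of 0.98 to 1.08 under the settings that kept all arrays and of 1.01 to 1.21 without single arrays. It was chosen for its rise and its groups do not overlap, so leaving out a single array could not turn its sign. The sign of small differences turned. The brighter Cdkn1a probe set, at 0.064, had -0.068 with quantile normalization, with or without the block, and -0.092 to 0.28 without single arrays. The dimmer one, at -0.15, ran from -0.73 to 0.37 without single arrays. The dimmer Cdkn1b probe set, at 0.78, ran from -0.084 to 1.38, and the brighter Cdkn2d probe set, at -0.036, from -0.42 to 0.18, with 0.020 under quantile normalization with or without the block. The cause was not tested. Of 223 list medians under alternatives, 206 moved by less than the spread between arrays and 17 by more. The dim probe sets of Cdkn2b, Cdkn2c and Cdkn2d lay below the array medians, so their differences are uncertain at this signal.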
